A study of Mus musculus with 24 samples.

Results

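The clade A serpin genes of mouse chromosome 12 encode alpha-1 antitrypsin (Serpina1a, Serpina1b, Serpina1c, Serpina1d and Serpina1e), the antichymotrypsin-related inhibitors Serpina3k, Serpina3m and Serpina3n, corticosteroid-binding globulin (Serpina6) and vaspin (Serpina12). These 10 genes were taken by name, with earlier results of these data known, and they are 10 of the 25746 genes counted. All 10 passed the filter on low counts, which kept 12330 genes. Hepatic RNAseq counts were available for 24 C57BL/6N mice (spelled C57/BL6N in the sample labels) aged 12 weeks. They were 6 each of male wildtype (mWT), male Mup knockout (mKO), female wildtype (fWT) and female Mup knockout (fKO) mice. The knockout (KO) mice lack the whole cluster of major urinary protein (Mup) genes, which was deleted on both chromosomes with CRISPR/Cas9, and the line goes back to a single founder, so that it stands for 1 deletion event. The wildtype (WT) mice were littermates of the KO mice, each mouse gave 1 library, and mice of all groups were fasted and scanned by microCT under isoflurane before sacrifice.

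Many serpins are secreted protease inhibitors that present an exposed reactive centre loop as bait. The protease cuts the loop and is trapped when the serpin changes its fold, and the residues of the loop set which proteases are caught. Alpha-1 antitrypsin, which restrains neutrophil elastase, is made mainly by hepatocytes and is encoded by 1 gene in humans but by several neighbouring copies in mice. Serpina3n is a known acute phase protein, while Serpina6 carries glucocorticoids in blood and does not act as an inhibitor. Several liver genes in mice differ between the sexes because growth hormone is released in pulses in males and more steadily in females.

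All 10 genes lie on chromosome 12 of GRCm38, as annotated in GENCODE M21, between positions 103646630 and 104414329. Serpina6 (ENSMUSG00000060807, chr12:103646630-103657212) opens the series, followed by the Serpina1 copies with Serpina1e (ENSMUSG00000072849, chr12:103946931-103958975) last, then Serpina12 (ENSMUSG00000041567, chr12:104028769-104044443), all on the minus strand. The annotated locus of Serpina1b spans Serpina1d on the same strand, without shared exonic bases. The 3 Serpina3 genes follow on the plus strand, where the annotated locus of Serpina3m spans Serpina3k and shares 60 exonic bases with it. Serpina1c overlaps the gene B430119L08Rik on the opposite strand. The strand setting of the counting is not given in the sources used here, so reads of Serpina1c and of this gene cannot be told apart where they overlap.

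The coding sequences of the 5 Serpina1 genes were 96.3 to 98.5% identical to each other, and those of the 3 Serpina3 genes 82.1 to 90.9%. The coding stretch of the reactive centre loop is shown, since it is where inhibitors of 1 family can differ in the proteases they catch. Of 75 aligned bases of this stretch, 15 differed among the Serpina1 genes and 32 among the Serpina3 genes. The stretches were read from the GENCODE M21 transcripts, each lies within 1 exon, and capitals mark the positions at which the genes of a family differ. For Serpina1e the stretch is at chr12:103947105-103947179 and for Serpina1c at chr12:103895099-103895173, both on the minus strand. The 5 Serpina1 stretches follow.
Serpina1a: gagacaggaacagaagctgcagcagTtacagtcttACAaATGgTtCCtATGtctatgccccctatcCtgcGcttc
Serpina1b: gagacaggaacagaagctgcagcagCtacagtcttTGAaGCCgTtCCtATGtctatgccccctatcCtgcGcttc
Serpina1c: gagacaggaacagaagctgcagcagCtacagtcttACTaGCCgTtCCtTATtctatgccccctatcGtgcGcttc
Serpina1d: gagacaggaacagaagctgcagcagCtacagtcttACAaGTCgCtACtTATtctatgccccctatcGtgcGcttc
Serpina1e: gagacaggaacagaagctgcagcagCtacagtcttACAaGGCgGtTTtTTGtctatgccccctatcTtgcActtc
The 3 Serpina3 stretches, with that of Serpina3k at chr12:104345263-104345337 on the plus strand, follow.
Serpina3k: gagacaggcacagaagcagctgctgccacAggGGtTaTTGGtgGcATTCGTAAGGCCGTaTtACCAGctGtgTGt
Serpina3m: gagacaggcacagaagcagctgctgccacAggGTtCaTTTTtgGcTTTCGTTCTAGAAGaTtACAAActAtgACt
Serpina3n: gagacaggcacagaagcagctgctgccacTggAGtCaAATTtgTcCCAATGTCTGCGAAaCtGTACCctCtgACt

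The sequences before the start sites of the Serpina1 genes are also shown, since some of the 5 genes passed the test for a sex difference and others did not. They were taken from RefSeq (GRCm38.p6) and aligned, and the shared stretch was 92.1 to 97.8% identical between genes, with 27 of 229 aligned positions differing. The pair with the highest identity was Serpina1b and Serpina1e. In GENCODE M21 the loci of these 2 genes reach farther upstream, so that their stretches lie inside the annotated loci. The stretches of Serpina1e (chr12:103956910-103957136), Serpina1b (chr12:103738150-103738378) and Serpina1c (chr12:103904912-103905138), all on the minus strand, are given with the same use of capitals.
Serpina1e: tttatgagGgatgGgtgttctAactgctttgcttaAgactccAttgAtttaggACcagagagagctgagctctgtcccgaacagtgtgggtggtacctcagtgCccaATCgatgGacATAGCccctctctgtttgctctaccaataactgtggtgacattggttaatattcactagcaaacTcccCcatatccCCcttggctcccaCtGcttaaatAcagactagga
Serpina1b: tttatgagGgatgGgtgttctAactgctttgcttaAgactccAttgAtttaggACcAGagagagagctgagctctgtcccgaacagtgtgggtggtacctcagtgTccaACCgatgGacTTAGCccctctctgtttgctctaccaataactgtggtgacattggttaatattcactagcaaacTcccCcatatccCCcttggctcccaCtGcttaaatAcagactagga
Serpina1c: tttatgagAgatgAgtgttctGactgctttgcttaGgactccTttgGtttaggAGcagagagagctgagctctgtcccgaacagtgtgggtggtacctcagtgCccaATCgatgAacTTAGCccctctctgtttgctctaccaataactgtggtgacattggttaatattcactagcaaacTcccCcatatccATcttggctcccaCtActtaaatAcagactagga
The letters GTTAAT, part of the recognition sequence of the hepatocyte factor HNF1, were found on either strand in the promoter windows of all 5 Serpina1 genes and in 7.1% of the 32851 RefSeq promoter windows. The letters TTCNNNGAA, the core recognised by STAT factors, were in 0 of the 7 windows available for the members and in 8.3% of all windows. Since TTCNNNGAA was absent from the member windows, the 2 motifs could not share a position there. Such a match is a description of letters and says nothing about binding.

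The total count per library ranged from 15361901 to 26261394. The summed expression of the 22 Mup genes was 17028 to 37393 CPM (counts scaled to library size, with TMM factors) in mWT and 3395 to 5259 CPM in fWT mice, and at most 0.457 CPM in any KO mouse, as the genotype labels say. Summed markers of hepatocytes, which make most clade A serpins, ranged from 110499 to 165964 CPM over all groups. In liver tissue, fewer cells of a type and less RNA per cell cannot be told apart.

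The 10 genes together took 3.68% ± 0.504 of all reads in males and 2.49% ± 0.238 in females of the WT groups (SD, n = 6 each). Per kilobase of the transcript chosen for each gene, Serpina3k had the highest level in every group. It had 7735 ± 1486 CPM per kilobase in mWT and 4968 ± 1361 in fWT mice (SD, n = 6 each). In mWT mice it was followed by Serpina1e with 5229 ± 2154 CPM per kilobase (SD, n = 6) and Serpina1b with 3196 ± 187 (SD, n = 6). The ranges of Serpina3k and Serpina1e overlapped in mWT mice, as did those of Serpina1e and Serpina1b and of Serpina1b and Serpina1c. In fWT mice Serpina1e took the eighth place among the 10 genes, with 235 ± 93.4 CPM per kilobase (SD, n = 6), next to Serpina3n with 227 ± 30.7 (SD, n = 6), and their ranges overlapped. Serpina12 was the lowest in every group, with 21.3 ± 4.40 CPM per kilobase (SD, n = 6) in mWT mice. The order between these ends depends on the length used. Per kilobase of all annotated exons, the mWT means of Serpina1c (2857 CPM) and Serpina1d (2049 CPM) were above that of Serpina1b (1845 CPM). By that length the fWT mean of Serpina1e (188 CPM) was below that of Serpina3n (227 CPM). Levels of the Serpina1 copies depend on how reads that fit several copies were assigned, which is not given in the sources used here. Exonic stretches of 100 bases, the read length, that occur in no other gene made up 30.7% of all such stretches of Serpina1c, 57.2% of Serpina1a, 70.7% of Serpina1d, 85.2% of Serpina1b and 85.6% of Serpina1e, against 93.9% or more of each of the other 5 members.

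**Figure D1:**
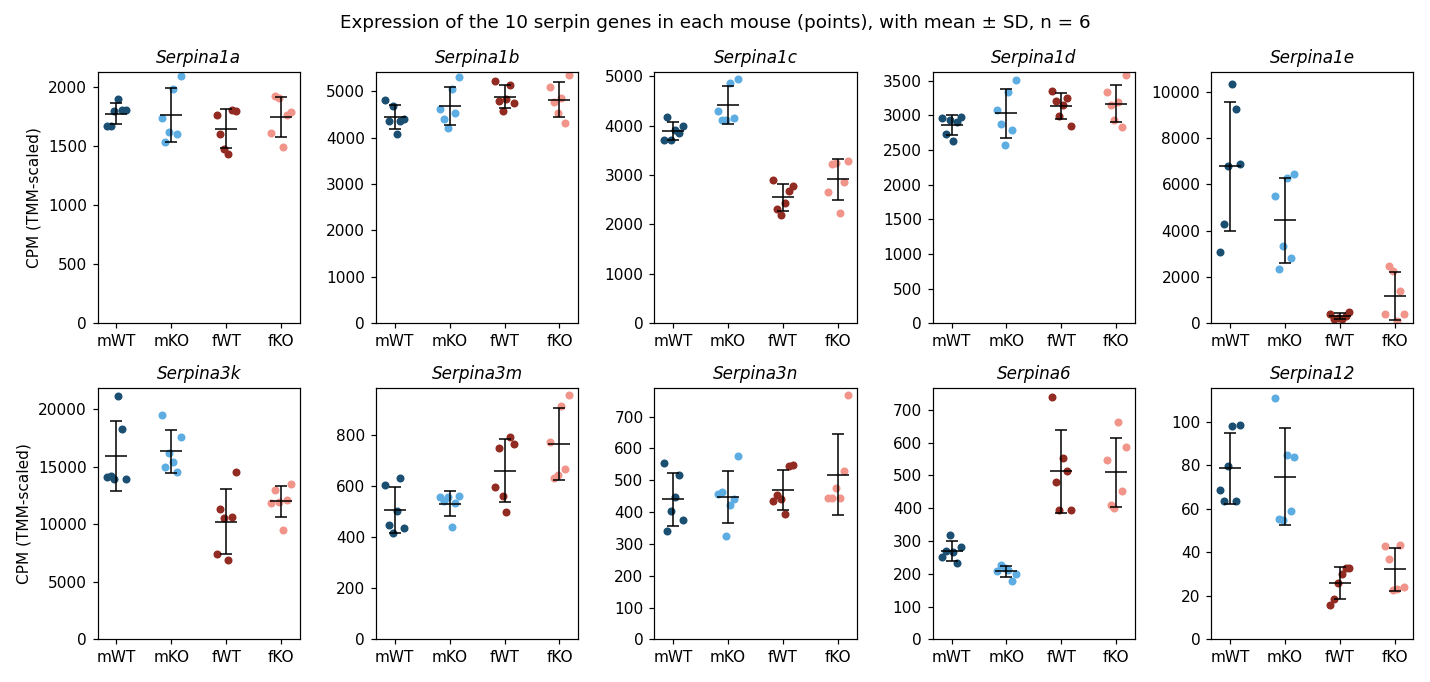
Expression of the 10 serpin genes in each mouse, in CPM on a linear axis from 0, in the 4 groups of 6 mice. Points are mice, and bars are the mean ± SD. Serpina1c, Serpina1e, Serpina3k and Serpina12 sit higher in males, Serpina3m and Serpina6 higher in females, while Serpina1a, Serpina1b, Serpina1d and Serpina3n did not pass the test for sex.

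Sex differences were seen in 6 of the 10 genes in WT mice. The adjusted p-value of edgeR's quasi-likelihood test was under 0.05 for 4 genes that were higher and 2 that were lower in mWT than in fWT mice. Of all 12330 genes tested, 17.3% passed, 8.51% as higher and 8.81% as lower in males. The median log2 fold change of the 10 genes was 0.01, with a range from -0.92 to 4.48. In KO mice the same 6 genes passed, in the same directions, where 14.4% of all genes passed, 7.26% as higher and 7.13% as lower in males. Ranges without overlap between the 6 males and 6 females were found for 4 members in WT and 5 in KO mice, against 7.7 and 7.26% of all genes.

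Among the alpha-1 antitrypsin genes, Serpina1e had the largest sex difference. Its level in mWT mice was 3074 CPM in the lowest mouse, 6830 at the median and 10346 in the highest, and in fWT mice it was 188, 276 and 495 CPM. Each male was above every female, and the fitted log2 fold change was 4.48 (SE 0.65, adjusted p = 4.16e-05), which is 22.2-fold. In KO mice the difference was 1.93 on the log2 scale (SE 0.58, adjusted p = 0.0283), or 3.82-fold, and 5 of 6 males were above all females. This last call was lost when fKO mouse 1, fKO mouse 6, mKO mouse 4 or mKO mouse 6 was left out (adjusted p from 0.0550 to 0.0596), with the KO mice fitted alone (0.120), and with the mouse number as a replicate block (0.101).

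Serpina1c, the copy with the fewest bases of its own, was higher in males by 0.61 on the log2 scale in WT mice (SE 0.09, adjusted p = 2.05e-05) and by 0.60 in KO mice (SE 0.09, adjusted p = 2.73e-05). Its values ran from 3700 to 4179 CPM in mWT and from 2189 to 2902 CPM in fWT mice, and from 4120 to 4950 CPM in mKO and from 2224 to 3282 CPM in fKO mice. Males and females did not overlap in either genotype. Serpina1a, Serpina1b and Serpina1d did not pass in either genotype, with log2 differences between -0.13 and 0.11 in WT and between -0.07 and 0.01 in KO mice. Their means were 1773 ± 88.6 against 1647 ± 167 CPM for Serpina1a, 4455 ± 261 against 4886 ± 244 CPM for Serpina1b, and 2857 ± 142 against 3134 ± 184 CPM for Serpina1d (mWT against fWT, SD, n = 6 each). Serpina1e passed and Serpina1b did not, and their promoter stretches printed above were 97.8% identical. The difference between the 2 genes was not tested.

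**Figure D2:**
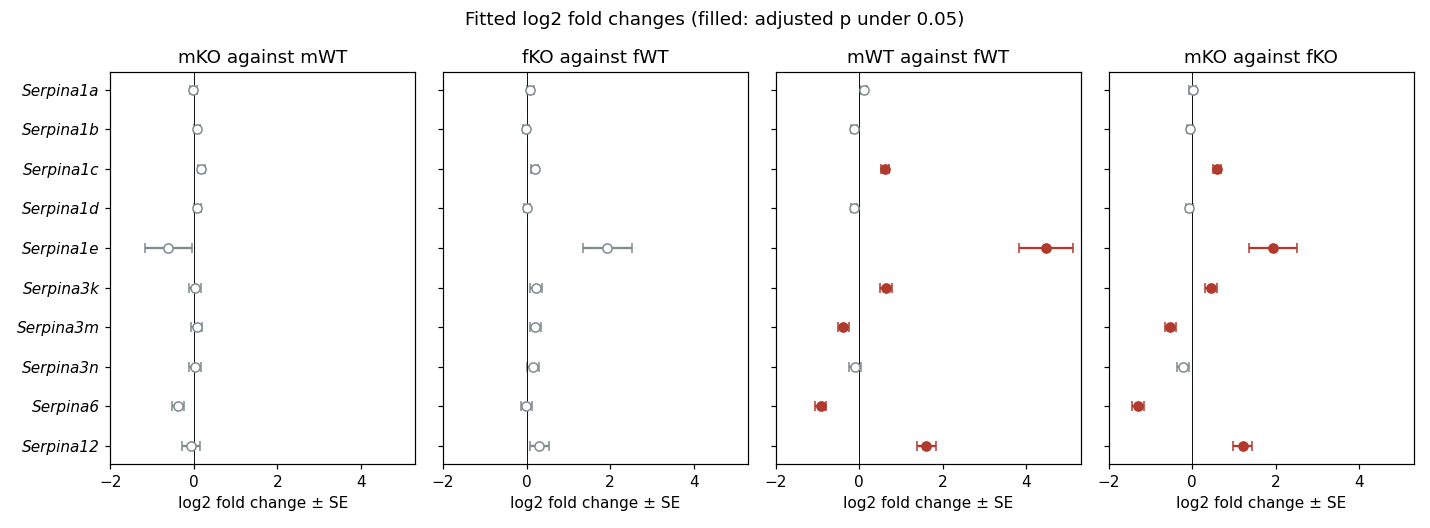
Fitted log2 fold changes with standard errors of the 10 genes in 4 comparisons (x axis, log2 scale; genes on the y axis). Filled points have an adjusted p under 0.05 and open points do not. No point is filled in the comparisons of KO with WT mice, and the same 6 genes are filled in both sex comparisons, with Serpina1e farthest to the right at 4.48 in WT mice.

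None of the 10 genes passed the adjusted threshold for an effect of the Mup deletion in males or females with edgeR's quasi-likelihood test. In males 0 of 10 passed, where 0.211% of all genes did, and 1 of 10 had an unadjusted p under 0.05. In females 0 of 10 passed, where 0.0892% of all genes did, and 2 of 10 had an unadjusted p under 0.05. DESeq2 called 0 members in males and 1 in females, which was Serpina1e. At the cut-off of the study, an unadjusted p under 0.01, 1 member passed in each sex, Serpina6 in males and Serpina1e in females, against 3.52 and 0.876% of all genes. The median log2 fold change of the 10 genes was 0.03 in males and 0.17 in females, and that of all genes tested was -0.00 and -0.00.

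In females, Serpina1e had a higher mean and a wider range in KO than in WT mice, and the spread itself was not tested. The 6 fKO mice had 386, 2460, 2264, 74.0, 1392 and 416 CPM in the order of their numbers, so that 3 of them were above and 1 below all fWT mice. This gave a mean of 1165 ± 1029 CPM for the fKO group, against 304 ± 121 CPM for the fWT group (SD, n = 6 each). Over all genes, fKO mice 2 and 3, with the highest Serpina1e of their group, had the most alike counts of any same-group pair. Their chi-square per gene was 7.675, against 14.79 for the next pair, and the reason was not tested. The log2 fold change of Serpina1e was 1.94 (SE 0.58, unadjusted p = 0.00321, adjusted p = 0.929), and DESeq2 gave 1.94 with an adjusted p of 0.0262. With edgeR the adjusted p ranged from 0.157 to 0.997 when single mice were left out, and it was 0.709 to 0.992 under the other settings. In males, the levels ran from 2351 to 6439 CPM in mKO and from 3074 to 10346 CPM in mWT mice, and 2 mKO mice were below all mWT mice. The log2 fold change of -0.61 (SE 0.56, adjusted p = 0.783) did not pass.

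The 2 effects on Serpina1e differed by -2.54 on the log2 scale (male minus female, SE 0.80, unadjusted p = 0.00483, adjusted p = 0.816), so the test of the difference did not pass either. For this interaction of genotype and sex, 0 of 10 members and 0.00811% of all genes passed, with 1 member at an unadjusted p under 0.05, and 0 members passed in DESeq2. Other male-biased genes known to depend on growth hormone were summed as a list of 14 and reached 778 to 1152 CPM in fWT and 822 to 1532 CPM in fKO mice. In the 6 fKO mice this sum was 1135, 1471, 1362, 822, 1532 and 1406 CPM in the order of their numbers. The lowest sum was in the mouse with the lowest Serpina1e, and mouse 6 combined a sum of 1406 CPM with 416 CPM of Serpina1e. Of the 14 genes, 0 passed in either direction in females at an adjusted p under 0.05. Their log2 fold changes for the KO in females nonetheless all lay above 0, from 0.034 to 1.515 with a median of 0.475. At an unadjusted p under 0.01, 2 of the 14 were higher in fKO mice, against 0.876% of all genes in either direction. The part of this list in the result was not tested.

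**Figure D3:**
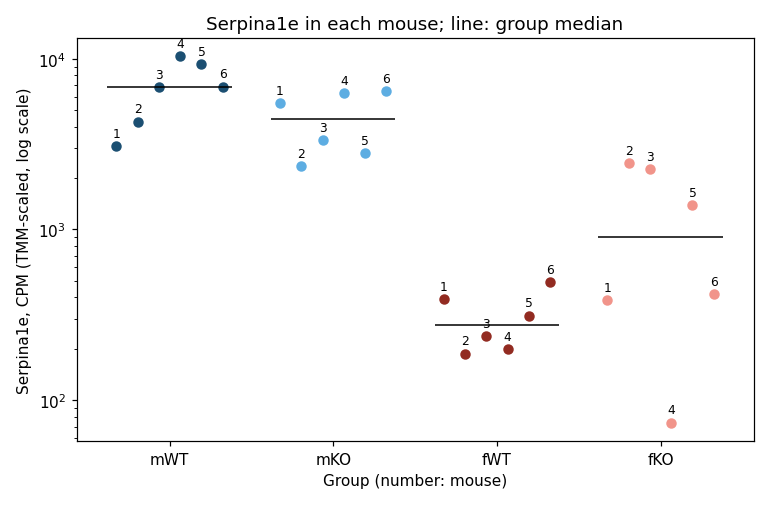
Serpina1e in each of the 24 mice, in CPM on a logarithmic axis, with the mouse number beside each point and a line at the group median. The fKO mice stretch from 74.0 to 2460 CPM, while the fWT mice stay between 188 and 495 CPM.

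The counts of the 5 copies were also summed, so that moving reads between copies leaves the sum unchanged. Leaving out reads that fit several copies would change it, and their handling is not given in the sources used here. The printed loop stretches differ among the copies, so the sum does not stand for inhibition of any 1 protease. Summed before the fit, the 5 copies reached 16223 to 22859 CPM in mWT, 15291 to 22311 in mKO, 11484 to 13630 in fWT and 11848 to 15514 CPM in fKO mice. The sum was higher in males by 0.66 on the log2 scale in WT mice (SE 0.10, adjusted p = 4.62e-05) and by 0.41 in KO mice (SE 0.10, adjusted p = 0.00732). The KO effect was -0.11 in males (SE 0.10, adjusted p = 0.796) and 0.14 in females (SE 0.10, adjusted p = 0.933). Serpina1e supplied 33.2% ± 9.93 of these reads in mWT, 23.4% ± 6.21 in mKO, 2.41% ± 0.883 in fWT and 8.02% ± 6.73 in fKO mice (SD, n = 6 each). The share of Serpina1b was 23.0% ± 4.23 in mWT and 39.1% ± 1.02 in fWT mice (SD, n = 6 each), and shares of one sum move against each other.

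**Figure D4:**
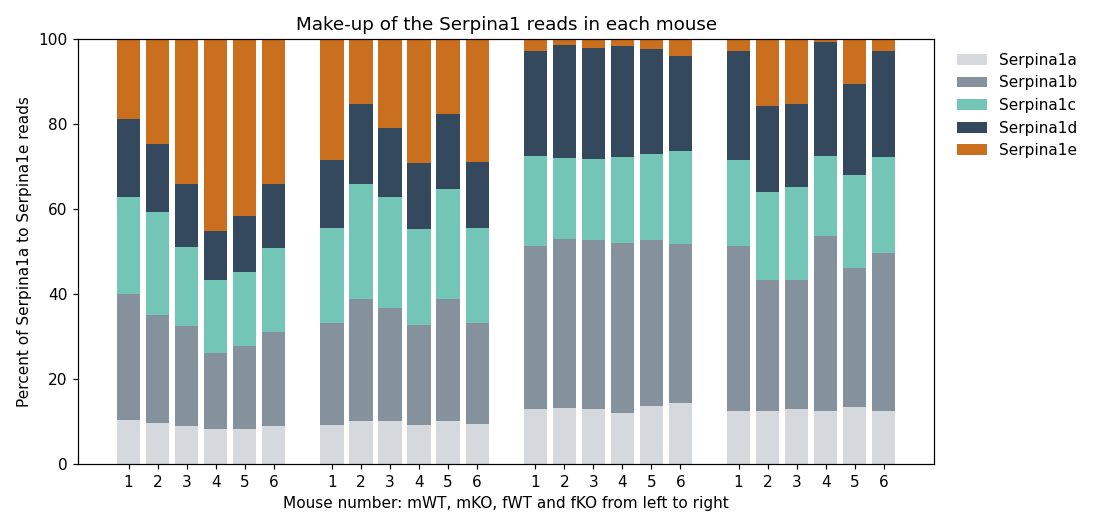
Share of each Serpina1 gene in the reads of all 5, in percent (y axis), for each mouse (x axis), with the groups mWT, mKO, fWT and fKO from left to right. The top segment, Serpina1e, takes 19.0 to 45.3% in mWT mice and 1.55 to 3.91% in fWT mice, and up to 15.9% in fKO mice.

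Of the Serpina3 genes, Serpina3k was higher and Serpina3m lower in males. Serpina3k, also called contrapsin, had 13905, 14128 and 21102 CPM as the lowest, median and highest value in mWT and 6933, 10570 and 14565 CPM in fWT mice. The ranges overlapped, and the log2 difference was 0.64 (SE 0.14, adjusted p = 0.00273). In KO mice it was 14499 to 19466 CPM in males and 9528 to 13511 CPM in females, without overlap, and the log2 difference was 0.45 (SE 0.14, adjusted p = 0.0369). That call was close to the threshold. It was lost without fKO mouse 1, 3, 4 or 5 or mKO mouse 1, 3, 4 or 6 (adjusted p from 0.0505 to 0.0960). With the replicate block the adjusted p was 0.0817. When single mice were left out, the log2 difference stayed between 0.38 and 0.48.

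Serpina3m was the reverse, with 418, 476 and 632 CPM as the lowest, median and highest value in mWT and 498, 674 and 791 CPM in fWT mice. The log2 difference of -0.38 (SE 0.13, adjusted p = 0.0421) was close to the threshold. It did not pass without the filter on low counts (0.0566), with the WT mice fitted alone (0.0676), with the replicate block (0.0600), or without fWT mouse 2, 5 or 6 or mWT mouse 2, 3, 4 or 6 (0.0668 to 0.107). In KO mice every male, between 439 and 562 CPM, was below every female, between 634 and 957 CPM, and the difference of -0.52 (SE 0.13, adjusted p = 0.00626) passed under every alternative tried. Serpina3n did not pass in any comparison, with 440 ± 83.6 CPM in mWT, 447 ± 80.7 in mKO, 469 ± 63.4 in fWT and 518 ± 127 CPM in fKO mice (SD, n = 6 each). The KO effects on the 3 genes lay between 0.02 and 0.07 on the log2 scale in males and between 0.14 and 0.23 in females, with standard errors from 0.13 to 0.14, and none passed.

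Serpina6, the carrier of glucocorticoids, was the member with the lowest unadjusted p for the KO effect in males. The lowest, median and highest values were 232, 268 and 319 CPM in mWT and 178, 211 and 228 CPM in mKO mice, so that each mKO mouse was below every mWT mouse. Such a separation was seen in 1 of the 10 members and in 1.09% of all genes. The log2 fold change was -0.38 (SE 0.13, unadjusted p = 0.00898, adjusted p = 0.276), which did not pass, and over the alternatives the adjusted p ran from 0.0559, with the 12 males fitted alone in edgeR, to 0.502, without mKO mouse 5. DESeq2 gave an adjusted p of 0.193. In females, the range was 393 to 738 CPM in fWT and 402 to 662 CPM in fKO mice, with a log2 fold change of -0.01 (SE 0.13, adjusted p = 0.998) whose sign changed between alternatives. The KO effects of the 2 sexes differed by -0.37 (SE 0.19, adjusted p = 0.838).

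Females had more Serpina6 in both genotypes, and no male reached the lowest female. The log2 difference was -0.92 in WT mice (SE 0.13, adjusted p = 1.74e-05) and -1.30 in KO mice (SE 0.14, adjusted p = 1.23e-07), which is 1.90-fold and 2.46-fold. Both calls held under every alternative tried. Serpina12, the insulin-sensitising vaspin, was higher in males, with 63.5 to 98.6 CPM in mWT against 15.9 to 32.8 CPM in fWT mice and 55.0 to 111 CPM in mKO against 22.6 to 43.4 CPM in fKO mice. No male overlapped with a female of the same genotype, and the log2 differences were 1.60 (SE 0.23, adjusted p = 2.73e-05) and 1.22 (SE 0.23, adjusted p = 0.000581). Its KO effects of -0.07 in males (SE 0.22) and 0.31 in females (SE 0.23) did not pass.

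Within groups, some members varied together. After each value was taken minus its group mean on the log2 scale, Serpina1b and Serpina1d varied together over the 24 mice (Pearson's r = 0.91, Spearman's rho = 0.91, and r = 0.87 without the 2 mice farthest from the median of Serpina1b). Serpina1a varied with Serpina1c (r = 0.81, rho = 0.84, and 0.77 without the 2 farthest) and with Serpina1e (r = 0.76, rho = 0.76, and 0.76). Serpina1c also varied with Serpina1e (r = 0.72, rho = 0.64, and 0.57), with r from 0.04 to 0.86 in the single groups. Serpina1e and Serpina1b did not vary together over the 24 mice (r = -0.17, rho = -0.21, and -0.21). Their r ran from -0.72 to 0.79 in the single groups. The r of Serpina1a and Serpina1c ran from -0.12 to 0.98 in the single groups, and that of Serpina1b and Serpina1d was at least 0.75. These correlations are descriptions, since the points share libraries and scaling, the copies share sequence, and Serpina1a and Serpina1c have the highest coding identity of all pairs, 98.5%.

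**Figure D5:**
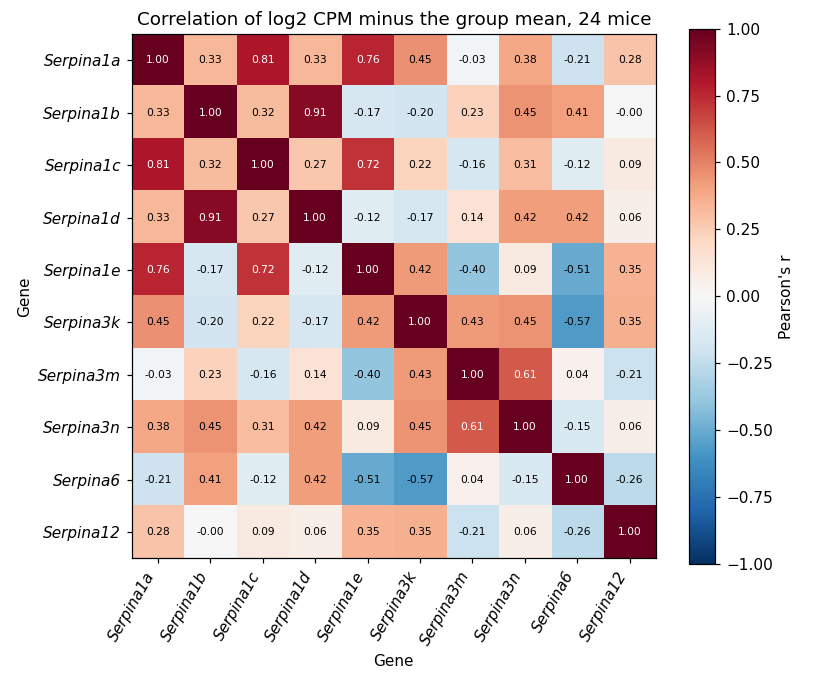
Pearson's r between the 10 genes (both axes) of log2 CPM minus the group mean over 24 mice, from -1 in blue to 1 in red. Serpina1b with Serpina1d (0.91) and Serpina1a with Serpina1c (0.81) have the highest values, and Serpina3k with Serpina6 (-0.57) the lowest.

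By the same measure, the genes outside the members most like Serpina3n were Lrpap1, Pgm3, Pck1, Psmf1 and Oplah, with Spearman's rho from 0.80 to 0.83 over the 24 mice. For Serpina6 they were Ripk2, Cers2, Azin1, Papss2 and Sult2a5, with rho from 0.75 to 0.77. For Serpina12 they were Farp1, Cdh4, Hsd3b5, Rab24 and Vangl1, with rho from 0.66 to 0.74. These genes were picked as the highest of all genes tested, so no test is given.

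Of 17 other clade A serpin genes listed, 15 were in the files and 7 were tested. None passed for a KO effect in either sex. Serpina10, the inhibitor of activated factor X that acts with protein Z, did not pass in WT mice (-0.21, SE 0.10, adjusted p = 0.129) and was lower in males in KO mice (-0.39, SE 0.10, adjusted p = 0.00658). Serpina7, thyroxine-binding globulin, was higher in males in KO mice (log2 1.67, SE 0.32, adjusted p = 0.000929). In WT mice its difference had the same direction and fell just short of passing (0.92, SE 0.32, adjusted p = 0.0507). Its level was 47.0 ± 24.4 CPM in mWT and 75.4 ± 23.4 CPM in mKO mice (SD, n = 6 each). That KO effect did not pass (0.68, SE 0.31, adjusted p = 0.447). Angiotensinogen (Agt), a clade A serpin without inhibitory function, was lower in males in both genotypes (-0.82, SE 0.11, adjusted p = 3.32e-06 in WT and -0.42, SE 0.11, adjusted p = 0.00753 in KO mice), and so was Serpina3g (-0.59, SE 0.18, adjusted p = 0.0225 and -0.54, SE 0.18, adjusted p = 0.0385). Serpina3f, Serpina9 and Serpina11 did not pass, with at most 2.67 CPM on average in any group for Serpina3f, 2.54 CPM for Serpina9 and 51.1 CPM for Serpina11. The median log2 fold change of the 7 genes was -0.05 for the KO in males, -0.07 for the KO in females, -0.21 for sex in WT and -0.39 for sex in KO mice.

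Serpins of other clades were tested as 8 genes, of which 0 passed for a KO effect. In WT mice, Serpine2, a protease nexin, was higher in males (log2 2.32, SE 0.26, adjusted p = 5.63e-07), and antithrombin (Serpinc1, -0.29, SE 0.06, adjusted p = 0.000969) and antiplasmin (Serpinf2, -0.31, SE 0.11, adjusted p = 0.0496) were lower. In KO mice only Serpine2 passed (log2 2.12, SE 0.25, adjusted p = 1.09e-06) among the 8. Of 15 proteases inhibited by or related to the members, 7 were tested and 0 passed for a KO effect, and plasminogen (Plg) was lower in males in both genotypes (-0.25, SE 0.07, adjusted p = 0.0145 and -0.24, SE 0.07, adjusted p = 0.0248). Prothrombin (F2) was lower in males in WT mice (-0.23, SE 0.07, adjusted p = 0.0220), and the elastase gene Cela1 was higher in males in KO mice (log2 0.61, SE 0.17, adjusted p = 0.0161).

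Transcription factors that act on the serpin genes were tested as 16 genes, and 0 passed for a KO effect in either sex. Cux2, a female-specific repressor in liver, was lower in males (-6.30, SE 0.50, adjusted p = 5.29e-09 in WT and -7.50, SE 0.55, adjusted p = 1.70e-09 in KO mice). Foxa3, a hepatocyte forkhead factor, was higher in males in both genotypes (log2 0.61, SE 0.17, adjusted p = 0.0124 and 0.52, SE 0.17, adjusted p = 0.0355). Of 24 acute phase genes, 0 passed for a KO effect. In females their log2 fold changes for the KO ran from 0.006 to 0.663 (median 0.197). In males 3 were higher in mKO mice at an unadjusted p under 0.01, against 3.52% of all genes in either direction. For sex, 2 were higher and 5 lower in males in WT mice, against 8.51 and 8.81% of all genes. In KO mice 0 were higher and 9 lower, against 7.26 and 7.13%. The inter-alpha-trypsin inhibitor chain Itih4 (-0.66, SE 0.10, adjusted p = 1.85e-05) and the serum amyloid P gene Apcs (-0.83, SE 0.18, adjusted p = 0.00228) were among the acute phase genes lower in mWT than in fWT mice. All 14 male-biased and all 15 tested female-biased growth hormone genes passed in the direction of their list in both genotypes.

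Markers of other liver cells were read against the 8.81% of all genes that were lower in males in WT and the 7.13% in KO mice. Of 9 tested markers of Kupffer and other myeloid cells, 6 were lower in mWT than in fWT mice, with the summed level of the 11 listed genes at 94.5 to 194 CPM in mWT and 179 to 319 CPM in fWT mice. Of 7 endothelial markers, 3 were lower in mWT mice, and of 8 stellate cell and fibroblast markers 1 was. Of 4 cholangiocyte and 3 lymphocyte markers tested, 1 each was lower in mWT mice. In KO mice these counts were 1 of 9, 1 of 7, 2 of 8, 0 of 4 and 0 of 3, and of 9 hepatocyte markers 0 passed in WT and 1, Ttr, was higher in males in KO mice. The part of these markers in the sex differences of the serpin genes was not tested.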

How the data were processed

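The authors extracted liver RNA, made stranded mRNA libraries and sequenced single-end reads, which were trimmed (fastp 0.20), mapped to GRCm38.p6 (STAR 2.7a) and summed over genes (featureCounts). The deposited values are unnormalized counts for each Ensembl gene. The annotation release, strand setting and handling of reads that fit several places are not given in the sources used here. Of the 25746 genes, 25712 were matched to GENCODE M21 for symbols and coordinates.

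Counts were analysed with edgeR 4.0.16 in R 4.3.3 (TMM scaling, robust quasi-likelihood fit of 4 group means to 24 libraries of 15361901 to 26261394 counts, a minimum of 0.66 CPM in 6 or more libraries). Calls used a Benjamini-Hochberg adjusted p under 0.05 over all genes, and adjusted p-values in the text come from this test unless DESeq2 1.42.0 is named. Each standard error (SE) is the absolute log2 fold change divided by the square root of the test's F statistic, and not a separate estimate. The edgeR procedure was tried on simulated counts in which genes were changed in mKO mice only. Each simulated gene had the same spread in all groups, so unequal spread between groups was not covered. The members and gene lists were chosen with earlier results of these data known. All 10 members are named, list genes by adjusted p under 0.05 (at most 4 per list and comparison by smallest p, of which some are shown), and every tested clade A serpin. WT and KO mice were littermates per the design text, but the litter of each mouse is not given in the sources used here. The p-values set group differences against the spread between these mice, estimated for each gene over the 4 groups together. Mouse numbers come from the labels and mark different animals. Of 6 same-numbered pairs per comparison, 1 or 2 had deviations correlated above 0.1. Pairs with different numbers were not compared, so these values cannot decide whether the numbers carry a pairing. The main fit treated the mice as unpaired. The alternatives were 33 in number, 24 of which left out 1 mouse. Alignments used MAFFT, and figures matplotlib.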

Additional observations from a re-analysis of the deposited data

Results flagged for a closer look

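Dixon's gap rule at the 95% level was applied to the 10 genes in the 4 groups of 6 mice, and 2 of 40 groups passed the critical value. Chance alone flags about 1 in 20 groups. In mKO mice, mouse 4 had 439 CPM of Serpina3m, below the next mouse at 532 CPM. In fKO mice, mouse 6 had 768 CPM of Serpina3n, above the next mouse at 529 CPM. Without fKO mouse 6, the KO effect on Serpina3n in females was -0.0041 on the log2 scale and did not pass, as with all mice.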

How the results depend on the processing

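The 33 alternatives were run for each member, the Serpina1 sum and the counts of calls, except that the fit of 12 mice alone gives no interaction. The number of members called stayed at 0 for both KO effects and the interaction, except that DESeq2 called 1 member for the KO in females. For the sex differences it was 5 to 6 in WT and 4 to 6 in KO mice when single mice were left out. Over all genes, DESeq2 called 107 genes for the male KO effect, 18 for the female one and 10 for their interaction, against 26, 11 and 1. Without the Mup genes 2 were called in males and 0 in females, since the Mup genes are among the calls, and with the 12 males fitted alone 48. Leaving out single mice gave 19 to 59 genes for the KO in males (59 without mWT mouse 1 and 40 without mWT mouse 2). The cause of the other changes was not tested.

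With the mouse number as a replicate block, within each sex or genotype, 0 members passed for either KO effect or the interaction, 5 for sex in WT and 4 for sex in KO mice. Serpina1e had a log2 fold change of 1.23 for the KO in females (adjusted p = 0.992), -1.84 for the interaction and 2.50 for sex in KO mice. Over all genes the block gave 26, 16, 1, 1747 and 1374 calls.

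Signs changed only for values that did not pass. For Serpina6 in females, DESeq2, its size factors and the block gave 0.00114, 0.00112 and 0.00227, and leaving out single mice -0.0896 to 0.126. Leaving out single mice gave, for the KO in males, -0.0654 to 0.0266 for Serpina1a, -0.0189 to 0.135 for Serpina3k, -0.0603 to 0.102 for Serpina3n and -0.219 to 0.00216 for Serpina12; for the KO in females, -0.052 to 0.0114 for Serpina1b, -0.0221 to 0.0463 for Serpina1d and -0.0041 to 0.193 for Serpina3n; for the interaction, -0.0793 to 0.0305 for Serpina1c and -0.208 to 0.0276 for Serpina3n; and for sex in KO mice, -0.0482 to 0.0487 for Serpina1a.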
